A study of Mus musculus with 6 samples.

Results

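Immediate early response genes were followed in the hearts of mice infused with angiotensin II (Ang II), with or without tectochrysin (Tec), a flavonoid. The 10 genes were Fos, Fosb, Jun, Junb, Egr1, Atf3, Nr4a1, Ier2, Ier3 and Dusp1. They were found by gene name, and each matched 1 of the 30914 genes of the expression table. The animals were male wild-type C57BL/6J mice, 8 weeks old at the start. Each received Ang II at 1 μg/kg/min from an osmotic pump for 4 weeks, and the Ang II + Tec group was given Tec at 5 mg/kg during the last 2 weeks as well. RNA came from the hearts of 3 mice in each group. No heart without Ang II was analysed here, so the comparison addresses what Tec adds to Ang II and not what Ang II does.

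Immediate early genes are transcribed within minutes of a stimulus from transcription factors that the cell already holds, chiefly SRF with its ETS-domain partners and CREB, and their transcripts decay quickly. Most encode transcription factors of short life, among them the Fos and Jun subunits of AP-1, the zinc finger protein Egr1 and the orphan nuclear receptor Nr4a1. Others, such as the phosphatase Dusp1, switch off the MAP kinases that started the response. In the heart they are known for their response to Ang II, to stretch and to pressure load, and they also respond to dissection of tissue.

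None of the 9 members that could be tested was differentially expressed between the groups, and the hearts of the groups overlapped for each of the 10. Ier3 was lowest relative to Ang II alone, at a log2 fold change of -0.71 (standard error 0.28, n = 3), and Nr4a1 was highest, at 0.82 (standard error 0.37, n = 3). Levels are in FPKM, fragments scaled to transcript length and to the mapped fragments of the library, so they may be compared between genes. The limma test was run on log2(FPKM + 1) for genes that reached 0.5 FPKM in 3 or more of the 6 libraries. That included 9 members, and Fosb was below the limit. A gene was called at a Benjamini-Hochberg adjusted p-value under 0.05, over all 13089 tested genes, and a log2 fold change of 1 or more in size. By this rule 0 of the 9 members were called, against 0.160% of all tested genes. At an unadjusted p-value under 0.05 on the deposited scale there was 1 member, Ier3, against 18.6% of all tested genes. Which members fell under 0.05 depended on the scaling of the libraries, as given below for Nr4a1 and Ier3. The share of all tested genes was not counted for the other scalings. Members in which the groups did not overlap numbered 0 of 9, against 21.8% of all tested genes.

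The libraries differed in ways that bear on every value below. The FPKM of all genes summed to between 516699 and 592733 with Ang II alone and to between 581800 and 629989 with Tec. Mitochondrially encoded transcripts held 40.1% to 48.9% and 49.6% to 52.5% of these sums. Over all tested genes the log2 fold changes had a median of -0.17, with 10471 of them lower with Tec, and the median was 0.0087 once the libraries were scaled by the median of ratios. A change is therefore best read relative to that shift. The markers of ventricular cardiomyocytes were present throughout, with a summed level of 14598 to 18549 FPKM over 9 of 9 genes in the 6 libraries. The labels give the tissue as heart, although the extraction protocol speaks of an adipose type. The atrial transcripts Myl7, Myl4 and Sln were at 1.58 FPKM or less in 3 of the 6 libraries. Nppa, of the same marker list, was at 124.9 FPKM or more in each library. Which parts of the heart each sample held is therefore not known. In bulk samples such as these, fewer cells of a type and less RNA per cell cannot be told apart.

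The members differed in gene structure. The longest annotated transcript (GENCODE M21) had 1 exon in Jun, Junb and Ier2, 2 in Egr1 and Ier3, 3 in Dusp1, 4 in Fos, Fosb and Atf3, and 8 in Nr4a1. Promoter sequences of 8 of the 10 members were found in the RefSeq promoter table (GRCm38.p6), where Egr1 and Ier2 were not matched. In the 250 bases before the start site, the core of the cAMP response element, TGACG or its complement CGTCA, was present in 6 of the 8 windows, those of Fos, Fosb, Junb, Atf3, Nr4a1 and Dusp1, and in 17.8% of all 32851 windows. The full palindrome TGACGTCA, which holds the core on each strand, was in 1 of 8, that of Dusp1, and in 1.55% of all windows. The EGR motif GCGGGGGCG, on either strand, was in Fosb and Nr4a1 and in 2.57% of all windows. TATAAA on the strand of the gene was in Fos and in 7.59% of all windows. The AP-1 motif TGAGTCA on either strand and the CArG box of SRF were each in 0 of 8, and in 4.46% and 1.47% of all windows. Sequence beyond these 250 bases was not searched, so sites further from the start of these genes would have been missed. The windows of 4 members are shown, for the member that was higher with Tec at the largest log2 fold change (Nr4a1), the member with the most negative one (Ier3), the founding AP-1 gene (Fos) and the gene with the full palindrome (Dusp1). Capitals mark these motifs, and a match is a description of the letters and not evidence of a bound factor.
Nr4a1, chr15:101266596-101266845, plus strand: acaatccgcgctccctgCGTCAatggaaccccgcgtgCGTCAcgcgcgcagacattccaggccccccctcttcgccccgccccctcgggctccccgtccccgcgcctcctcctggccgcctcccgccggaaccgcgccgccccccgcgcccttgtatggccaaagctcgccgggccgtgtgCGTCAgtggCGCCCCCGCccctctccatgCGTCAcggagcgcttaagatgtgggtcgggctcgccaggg
Ier3, chr17:35821463-35821712, plus strand: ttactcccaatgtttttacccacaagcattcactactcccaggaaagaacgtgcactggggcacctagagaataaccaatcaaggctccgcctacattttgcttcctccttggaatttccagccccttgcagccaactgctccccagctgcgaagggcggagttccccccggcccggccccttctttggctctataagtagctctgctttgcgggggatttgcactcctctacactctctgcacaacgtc
Fos, chr12:85473640-85473889, plus strand: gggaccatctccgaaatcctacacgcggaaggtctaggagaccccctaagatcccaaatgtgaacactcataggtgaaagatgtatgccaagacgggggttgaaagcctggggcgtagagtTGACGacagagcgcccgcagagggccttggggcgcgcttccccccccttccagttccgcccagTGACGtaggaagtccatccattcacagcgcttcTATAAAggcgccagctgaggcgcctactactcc
Dusp1, chr17:26508473-26508722, minus strand: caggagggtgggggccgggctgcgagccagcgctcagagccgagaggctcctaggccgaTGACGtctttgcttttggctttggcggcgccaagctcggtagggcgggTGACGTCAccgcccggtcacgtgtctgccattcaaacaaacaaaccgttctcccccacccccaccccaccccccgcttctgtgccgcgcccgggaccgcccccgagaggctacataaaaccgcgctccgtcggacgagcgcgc
The Nr4a1 window held the core 4 times, the Fos window 2 times and the Dusp1 window 3 times, of which the palindrome accounts for 2, whereas the Ier3 window held none of the motifs. The Nr4a1, Dusp1 and Atf3 windows lie inside the longer gene models of the expression table, since RefSeq starts these genes further downstream. The Ier3 window ends at 35821712, past the gene start of the expression table at 35821684, and the Fosb window also runs slightly into its gene model.

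The order of the levels was led by Ier3, at a mean of 29.4 FPKM over the 6 libraries, and by Dusp1, at 17.45. Jun was at 13.2, Ier2 at 8.61, Junb at 7.86, Nr4a1 at 4.70, Atf3 at 3.80, Egr1 at 2.91 and Fos at 1.45. Fosb was lowest, at 0.108 FPKM. Some neighbours in this order were not separated. Nr4a1 was above Atf3 in 3 of 6 libraries, Junb above Nr4a1 in 4 of 6, and Ier3 above Dusp1, Dusp1 above Jun and Ier2 above Junb in 5 of 6 each. Jun was above Ier2, Atf3 above Egr1, Egr1 above Fos and Fos above Fosb in 6 of 6.

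**Figure D1:**
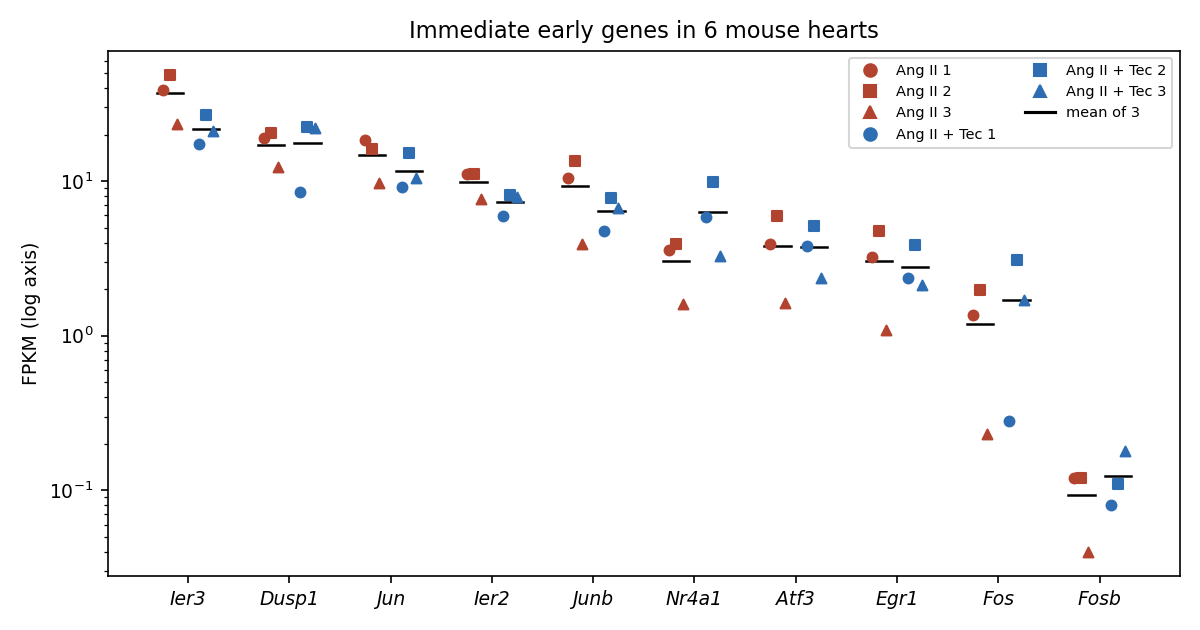
FPKM of the 10 members on a log axis, ordered by mean, with 1 point per heart (symbol shape gives the replicate) and a line at the mean of 3. The Ang II and Ang II + Tec points overlap for every member, and Ang II replicate 3 is the lowest heart for 6 of the 10.

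The AP-1 subunits were tested first. Fos (ENSMUSG00000021250, chromosome 12 from 85473890 to 85477273), the partner that AP-1 gains on stimulation, was at 1.37, 1.99 and 0.230 FPKM with Ang II and at 0.280, 3.10 and 1.71 FPKM when Tec was added. Each group thus held 1 heart with almost no Fos and others well above it, and the highest was 13.5 times the lowest. The means were 1.197 ± 0.893 and 1.70 ± 1.41 FPKM (SD, n = 3), a log2 fold change of 0.24 (standard error 0.47, 95% interval -0.87 to 1.34, limma adjusted p-value 0.775). The sign of that change rested on single libraries: it was -0.14 when Ang II replicate 3 was left out, and -0.14 also when Ang II + Tec replicate 2 was. Fosb (ENSMUSG00000003545, chromosome 7 from 19302696 to 19310051), a close relative of Fos, was at 0.12, 0.12 and 0.04 FPKM with Ang II and at 0.08, 0.11 and 0.18 FPKM with Tec, too low for a test.

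Jun (ENSMUSG00000052684, chromosome 4 from 95049034 to 95052222), which can pair with itself or with Fos, was at 18.6, 16.1 and 9.67 FPKM with Ang II and at 9.19, 15.1 and 10.4 FPKM with Tec. Ang II replicate 3 lay among the Tec-treated hearts, and Ang II + Tec replicates 2 and 3 lay within the range of the Ang II hearts. The log2 fold change was -0.31 (standard error 0.26, 95% interval -0.93 to 0.31, limma adjusted p-value 0.492), and it was -0.083 after scaling by the median of ratios. An antisense gene at the same place, Junos, was at 0.1 FPKM or less in each library.

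Junb (ENSMUSG00000052837, chromosome 8 from 84976910 to 84978718), a Jun relative with weaker activating function, was at 10.5, 13.5 and 3.93 FPKM with Ang II and at 4.73, 7.79 and 6.71 FPKM with Ang II + Tec. Its lowest and its highest values both came from Ang II hearts. The log2 fold change was -0.36 (standard error 0.39, 95% interval -1.27 to 0.55, limma adjusted p-value 0.584). Leaving out Ang II replicate 2 brought it to -0.044, and leaving out Ang II replicate 3 to -0.82.

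Atf3 (ENSMUSG00000026628, chromosome 1 from 191170296 to 191218039), a stress-induced bZIP repressor of the ATF family, was at 3.92, 5.92 and 1.63 FPKM and at 3.81, 5.16 and 2.36 FPKM. The treated hearts lay inside the range of the Ang II hearts. The FPKM means were 3.82 ± 2.15 and 3.78 ± 1.40 (SD, n = 3), slightly lower with Tec. The log2 fold change, taken between means of log2(FPKM + 1), had the opposite sign at 0.051 (standard error 0.37, 95% interval -0.82 to 0.92, limma adjusted p-value 0.942). It was -0.33 once Ang II replicate 3 was left out, and -0.15 once Ang II + Tec replicate 2 was.

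Egr1 (ENSMUSG00000038418, chromosome 18 from 34859823 to 34864984), a zinc finger activator that reads out ERK signalling, had a like pattern. Its values were 3.24, 4.74 and 1.09 FPKM with Ang II and 2.38, 3.87 and 2.13 FPKM with Tec. The Tec-treated values were again inside the Ang II range. The FPKM means were 3.02 ± 1.83 and 2.79 ± 0.941 (SD, n = 3), lower with Tec, whereas the log2 fold change was 0.0062 (standard error 0.37, 95% interval -0.85 to 0.86, limma adjusted p-value 0.993), and it turned to -0.41 when Ang II replicate 3 was omitted and to -0.19 when Ang II + Tec replicate 2 was omitted.

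Nr4a1 (ENSMUSG00000023034, chromosome 15 from 101254269 to 101274795), an orphan nuclear receptor also called Nur77, had the largest positive difference of the members. It was at 3.56, 3.95 and 1.61 FPKM with Ang II and at 5.90, 9.85 and 3.30 FPKM with Ang II + Tec. Ang II + Tec replicates 1 and 2 were above each Ang II heart, and replicate 3 was below Ang II replicates 1 and 2, so the groups overlapped. The means were 3.04 ± 1.25 and 6.35 ± 3.30 FPKM (SD, n = 3), a log2 fold change of 0.82 (standard error 0.37, 95% interval -0.054 to 1.69, limma adjusted p-value 0.284). The unadjusted limma p-value was 0.0622. The change stayed positive without any 1 library, from 0.49 without Ang II + Tec replicate 2 to 1.15 without Ang II + Tec replicate 3. After scaling by the median of ratios it was 1.02 (unadjusted limma p-value 0.0156, adjusted 0.277). Under quantile normalization it was 1.03 (unadjusted limma p-value 0.0139, adjusted 0.260).

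Ier2 and Ier3 were lower in their means with Tec. Ier2 (ENSMUSG00000053560, chromosome 8 from 84661331 to 84662854), a nuclear protein, was at 11.05, 11.09 and 7.65 FPKM with Ang II and at 5.93, 8.08 and 7.88 FPKM with Tec. Ang II replicate 3 fell just below the upper treated hearts, which alone made the groups overlap. The log2 fold change was -0.39 (standard error 0.18, 95% interval -0.81 to 0.029, limma adjusted p-value 0.286), and -0.17 after scaling by the median of ratios. Its highest level was 1.87 times its lowest, the narrowest range of the 10, with means of 9.93 ± 1.97 and 7.30 ± 1.19 FPKM (SD, n = 3).

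Ier3 (ENSMUSG00000003541, chromosome 17 from 35821684 to 35822923), also known as IEX-1, is a target of NF-κB and ERK that modulates cell survival. It was at 38.97, 48.9 and 23.6 FPKM with Ang II and at 17.3, 26.8 and 21.0 FPKM with Ang II + Tec. Of the Ang II hearts, replicate 3 alone lay below a treated heart, Ang II + Tec replicate 2. The means were 37.2 ± 12.8 and 21.7 ± 4.81 FPKM (SD, n = 3), a log2 fold change of -0.71 (standard error 0.28, 95% interval -1.36 to -0.064). The unadjusted limma p-value was 0.0354 and the adjusted one 0.249, so the difference did not pass. It was -0.47 after scaling by the median of ratios (unadjusted limma p-value 0.0459, adjusted 0.320). Under quantile normalization it was -0.48 (unadjusted limma p-value 0.0593, adjusted 0.320). It was negative without each library in turn, from -0.998 to -0.49.

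Dusp1 (ENSMUSG00000024190, chromosome 17 from 26505590 to 26562128), the nuclear phosphatase that inactivates p38, JNK and ERK, was at 19.03, 20.4 and 12.3 FPKM and at 8.54, 22.3 and 22.2 FPKM. Ang II + Tec replicate 1 was the lowest heart and the other treated hearts were the highest. The FPKM means were 17.2 ± 4.36 and 17.7 ± 7.90 (SD, n = 3), slightly higher with Tec. The log2 fold change, between means of log2(FPKM + 1), was of the opposite sign at -0.048 (standard error 0.37, 95% interval -0.91 to 0.82, limma adjusted p-value 0.945), with the opposite sign under median-of-ratios scaling (0.18) and under quantile normalization (0.18). The gene model overlaps the opposite-strand gene Ergic1, at 2.88 to 5.73 FPKM, and the pseudogene Gm8225, at 0.910 to 2.23 FPKM. Whether the counting used strand is not given in the sources used here, so a part of these reads may be shared.

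**Figure D2:**
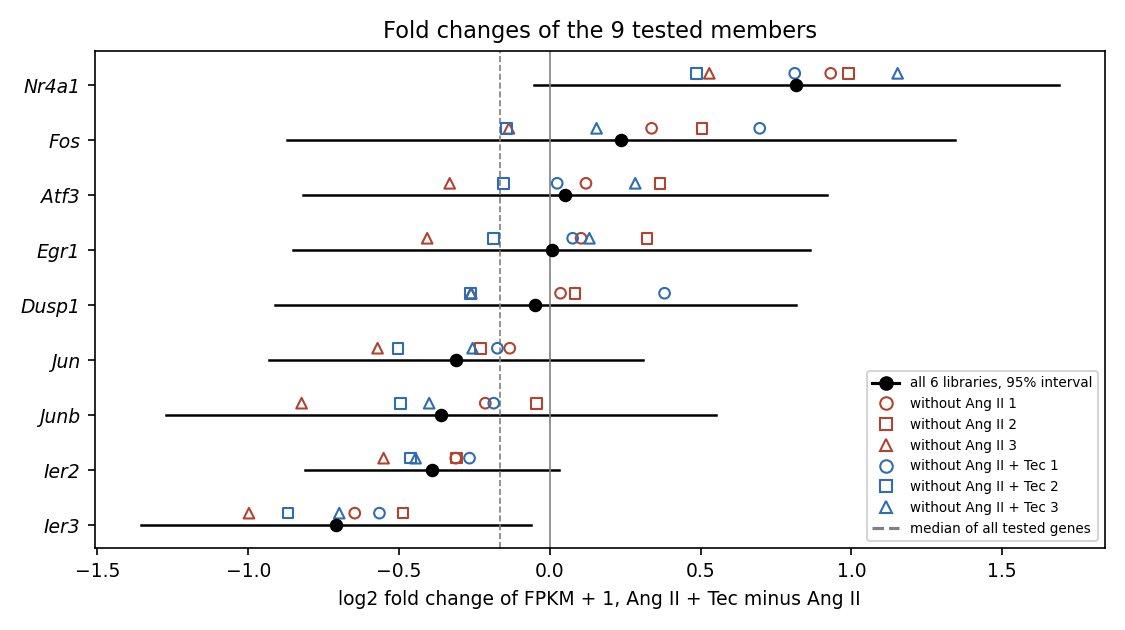
Log2 fold change of FPKM + 1, Ang II + Tec minus Ang II, for the 9 tested members: filled points with bars give the fit on 6 libraries with its 95% interval, and open symbols the fits without 1 library. Only the Ier3 bar lies wholly on one side of 0, and the dashed line marks the median of all tested genes at -0.17.

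Over the 9 tested members the median log2 fold change was -0.048, against -0.17 for all tested genes, with 4 members higher and 5 lower, of which Dusp1 turned higher under rescaling. After scaling by the median of ratios the medians were 0.18 and 0.0087. Without Ang II replicate 3 the picture shifted, with a median of -0.41 and an adjusted limma p-value under 0.05 for 3 members, all lower with Tec. These were Ier3 (-0.998, adjusted p-value 0.0114), Junb (-0.82, adjusted p-value 0.0228) and Ier2 (-0.55, adjusted p-value 0.0284). None passed the limit on the fold change as well. In that fit 28.7% of 12900 tested genes had an adjusted p-value under 0.05, 3363 of the 3701 lower, so the share of members was close to that of all genes.

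The members varied between hearts of the same group. The standard deviation of log2(FPKM + 1) within the groups had a median of 0.59 over the 9 members and of 0.17 over all tested genes. Each member lay above the median gene, from the percentile 73.8 for Ier2 to 98.1 for Fos. The hearts had a like order for most members. Ang II replicate 2 was among the highest 3 libraries for 10 of the 10 members, Ang II + Tec replicate 2 for 9 and Ang II replicate 1 for 7. Ang II + Tec replicate 3 was so for 3, Ang II + Tec replicate 1 for 1 and Ang II replicate 3 for 0. Relative to each gene's own mean, the median of the 9 members on the log2 scale was 0.19, 0.42 and -0.75 with Ang II and -0.44, 0.39 and -0.25 with Tec, in replicate order. For all tested genes the same quantity was 0.15, 0.17 and -0.064 and then -0.15, 0.023 and -0.13, a smaller range.

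Markers of some other cells moved with that order, and those of others did not. The summed FPKM of 5 atrial cardiomyocyte genes was 6205, 10253 and 256 with Ang II and 906, 5056 and 128 with Tec. Nppa made up most of each sum, at 5568, 9456 and 256 FPKM and at 906, 3489 and 125 FPKM. The paper measured its transcript, as Anp, as a hypertrophy gene, so the sum does not stand for atrial tissue alone. The atrial genes Myl7, Myl4 and Sln were at 67.1 FPKM or more in Ang II replicates 1 and 2 and in Ang II + Tec replicate 2, and at 1.58 or less in the other 3 hearts. Bmp10 was at 1.11, 0.06 and 0 FPKM with Ang II and at 0, 23.9 and 0 FPKM with Tec, so it was not raised in Ang II replicate 2. The 4 smooth muscle genes summed to 134, 316 and 92.1 FPKM and to 49.9, 231 and 77.9 FPKM. The 6 fibroblast genes summed to 576, 751 and 152 FPKM and to 130, 210 and 145 FPKM. The 6 macrophage genes gave 262, 414 and 203 FPKM and then 149, 142 and 156, so that Ang II + Tec replicate 2, high for most members, was the lowest for them. The 6 endothelial genes stayed between 79.5 and 101 FPKM. Of the 6 adipocyte genes, Adipoq, Plin1, Cfd and Cidea were highest in Ang II replicates 1 and 2 and Ang II + Tec replicate 2. Fabp4 and Ucp1 did not follow that order. Cfd was at 10.3, 27.4 and 0.66 FPKM with Ang II and at 0.17, 56.2 and 2.06 FPKM with Tec. So the 3 hearts with high Myl7, Myl4 and Sln were those in which most members were highest. The same 3 hearts had the highest sums of the smooth muscle and the fibroblast genes, so the match is not particular to the atrial list. The part of these cells in the members' levels was not tested.

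**Figure D3:**
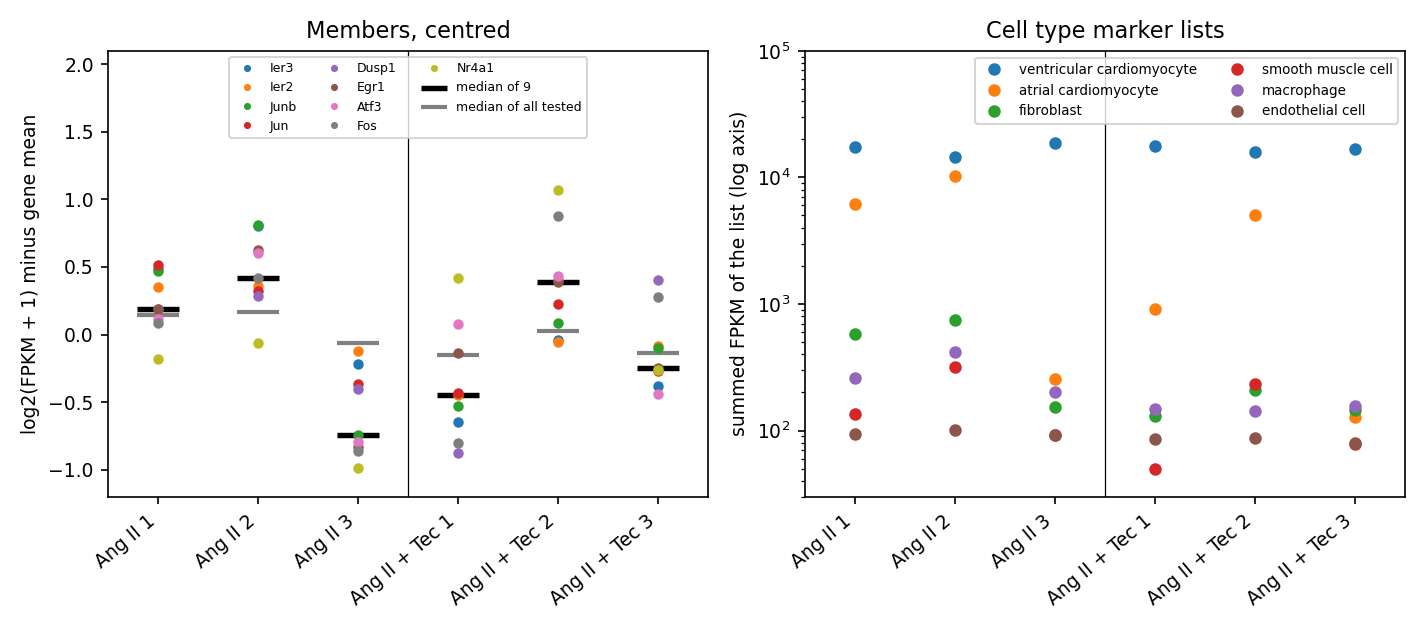
Left, log2(FPKM + 1) of the 9 tested members minus each gene's mean, by library, with the median of the members (black) and of all tested genes (grey). Right, summed FPKM of marker lists on a log axis: the atrial list, most of it Nppa, ranges from 128 to 10253. The 3 highest libraries of the atrial, the smooth muscle and the fibroblast lists are those with the 3 highest member medians.

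Ratios between members within a library cancel the scaling of that library. Of the 36 ratios among the 9 tested members, 8 did not overlap between the groups, and 6 of these 8 involved Nr4a1. The share of separating ratios among pairs of other genes was not counted, so 8 of 36 has no level to be read against. The ratio of Jun to Nr4a1 was 5.22, 4.08 and 6.01 with Ang II and 1.56, 1.53 and 3.16 with Tec. That of Atf3 to Nr4a1 was 1.10, 1.499 and 1.01 and then 0.646, 0.524 and 0.715. Nr4a1 to Ier3 went from 0.0914, 0.0808 and 0.0683 to 0.341, 0.367 and 0.157. Nr4a1 was thus higher with Tec relative to Jun, Junb, Atf3, Egr1, Ier2 and Ier3, and the groups overlapped in its ratios to Fos and Dusp1. The ratio of Nr4a1 to the gene separated the groups for 59.8% of 13026 tested genes above 0 in each library, which is the level to read 6 of 8 members against. These ratios were examined after the values had been seen, share Nr4a1, and with 3 hearts against 3 an exact permutation test of any of them could not go below 0.1.

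**Figure D4:**
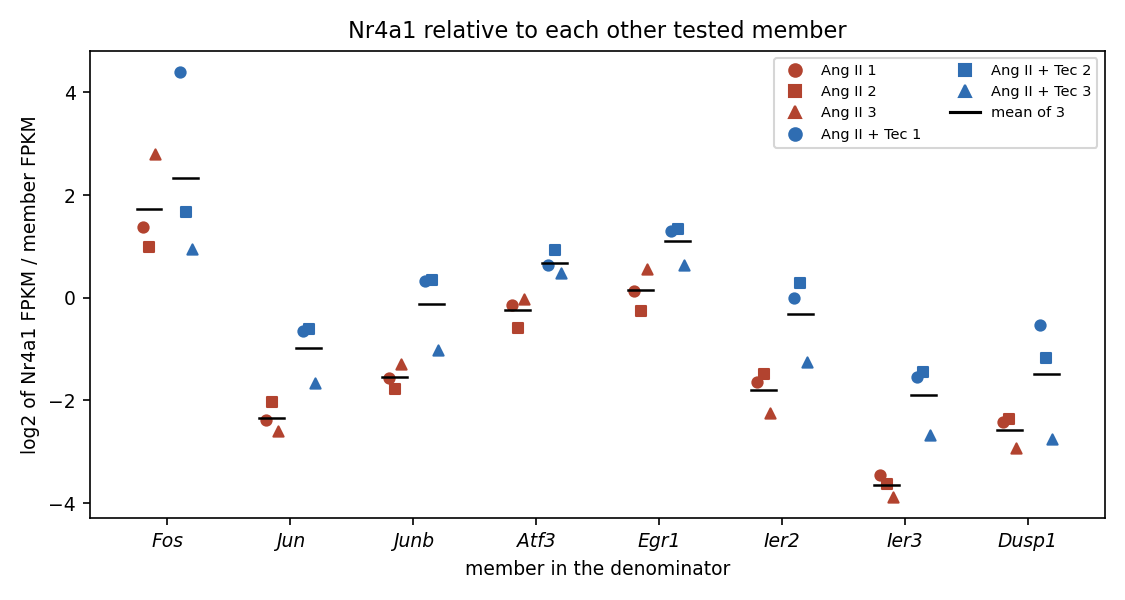
Log2 of the ratio of Nr4a1 FPKM to that of each other tested member, 1 point per heart, with a line at the mean of 3. The Ang II + Tec hearts lie above the Ang II hearts for 6 members, while for Fos and Dusp1 the groups overlap.

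The genes around the members gave 0 calls in each of 5 lists, against 0.160% of all tested genes. With so low a share, 0 calls does not set these lists apart. Of 20 AP-1 and ATF/CREB relatives, 16 were tested, 13 were lower and 3 higher with Tec, and the median log2 fold change was -0.22. At an unadjusted limma p-value under 0.05 there were 2 of the 16, both lower, against 18.6% of all tested genes in either direction. Jdp2, a repressor that pairs with Jun, was at 7.10, 7.17 and 4.97 FPKM and at 4.39, 4.60 and 4.15 FPKM (-0.45, standard error 0.15, adjusted p-value 0.229), and its groups did not overlap. That was so for 1 of the 16, against 21.8% of all tested genes. Atf4, the effector of the integrated stress response, changed by -0.48 (standard error 0.20, adjusted p-value 0.260), and Atf5 by -0.44 (standard error 0.24). Jund, the Jun subunit present in resting cells, was the most abundant at 63.1, 55.9 and 42.7 FPKM and at 41.6, 60.3 and 43.0 FPKM, above each of the members in every library.

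Of 13 relatives of Egr1 and Nr4a1, including the KLF factors, 12 were in the table and 9 tested, 6 of them higher and 3 lower, with a median of 0.047. Klf15, a repressor of hypertrophic growth in cardiomyocytes, was at 17.3, 14.9 and 25.4 FPKM and at 23.2, 30.05 and 31.4 FPKM (0.55, standard error 0.21, limma adjusted p-value 0.243). Nab2, a corepressor of Egr proteins, was at 3.22, 3.51 and 1.81 FPKM and at 1.10, 2.36 and 1.03 FPKM (-0.63, standard error 0.25, adjusted p-value 0.256), and Klf9 changed by 0.28 (standard error 0.13). Egr2 and Egr3, chosen after their values were seen, were too low to test. Egr2 was at 0.71, 1.71 and 0.09 FPKM with Ang II and at 0.12, 0.27 and 0.18 FPKM with Tec, and Egr3 at 0.82, 0.84 and 0.06 FPKM and at 0.28, 0.35 and 0.13 FPKM. Ang II replicate 3 was the lowest heart for both.

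Of 40 other immediate early genes, 37 were tested, 22 lower and 15 higher, with a median of -0.083. At an unadjusted p-value under 0.05 there were 5 lower and 1 higher, a share below the 18.6% of all tested genes. Ccn2, a matricellular protein also called CTGF, ranged most among the tested genes of the list, at 155, 457 and 17.9 FPKM and at 48.4, 134 and 34.2 FPKM (-0.84, standard error 1.09, limma adjusted p-value 0.650). Cebpd, a C/EBP factor of the acute phase, changed by -0.79 (standard error 0.31, adjusted p-value 0.252), and Hbegf, an EGF receptor ligand, by -0.78 (standard error 0.27, adjusted p-value 0.231). Without Ang II replicate 3, Ccn2, Hbegf, Ccn1 and Cebpd were called, 4 of the 37 (Ccn1 is named only for this call), while 4.22% of all 12900 genes tested in that fit were called as well.

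Feedback regulators and upstream kinases mostly had lower means on the deposited scale, as did most genes. Of 16 MAP kinase phosphatases and ERK inhibitors of the Sprouty and Spred families, 12 were tested, 11 lower and 1 higher, with a median of -0.22. At an unadjusted limma p-value under 0.05 there were 0 of the 12, against 18.6% of all tested genes. Dusp3, the most abundant, changed by -0.32 (standard error 0.19), Spred1 by -0.51 (standard error 0.24) and Dusp5 by -0.28 (standard error 0.17). Of 31 upstream kinases, receptors and SRF cofactors, 31 were tested, 28 lower and 3 higher, with a median of -0.17, the same as for all genes. Hras, the small GTPase at the head of the ERK cascade, was at 14.7, 14.6 and 11.8 FPKM and at 8.13, 7.09 and 8.67 FPKM, without overlap (-0.71, standard error 0.13, limma adjusted p-value 0.154). The groups did not overlap for 5 of the 31, against 21.8% of all tested genes. Mapk3, which encodes ERK1, changed by -0.38 (standard error 0.15, adjusted p-value 0.257), Rps6ka4 by -0.42 (standard error 0.21) and Mapkapk2, the most abundant of the list, by -0.21 (standard error 0.12).

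Genes with a pattern like that of the members were sought among 11039 other tested genes with a mean of at least 1 FPKM. Likeness was the root-mean-square difference over the 6 libraries from the median centred profile of the members. The closest were Tent5a (0.11 on the log2 scale), Gm50388 (0.11), Apoe (0.13), Gm10254 (0.13) and Ptk2b (0.13), and the members themselves lay between 0.16 (Egr1) and 0.52 (Nr4a1). Apoe, a lipid carrier, was at 165, 191 and 78.2 FPKM and at 85.3, 172 and 106 FPKM, high in the same 3 hearts as the members. With so many genes and 6 libraries, close matches are common, and nothing on function follows from them.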

How the data were processed

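Hearts of 3 mice given Ang II and 3 given Ang II and Tec were compared. The authors trimmed reads with Cutadapt, inspected them with FastQC and deposited FPKM per gene and library. The submitters' processing notes name HISAT2 2.0, StringTie 1.3.0, Bowtie 0.12.2 and mm8 without roles, but 90.6% of the 30832 genes shared with GENCODE M21 have its GRCm38 coordinates. The labels name a NovaSeq and the paper a HiSeq, and the extraction protocol in the labels speaks of adipose tissue where the tissue label says heart. FPKM hold no read totals. The spacing of the lowest values gave a relative depth of 0.893 to 1.16, as an estimate, and no counting interval.

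Genes with 0.5 FPKM or more in 3 libraries were tested on log2(FPKM + 1) with limma 3.58.1 in R 4.3.3 (trend, no block), adjusted over 13089 genes. The scale understates changes of low genes. On simulated data for this comparison, 200 of 13089 genes were raised by 2 on the log2 scale. There limma called 188, with 3 false calls, and with none changed it called 0. In the hearts the largest change of a tested member was 0.82 (Nr4a1). The median standard deviation within the groups was 0.59 over the members and 0.17 over all tested genes. Recovery of changes of the members' size at the members' spread was not tested. The members and lists were chosen with earlier results of these data known. The genes named are the members, the 3 largest changes and the most abundant gene of each list, and the 5 most alike. Egr2, Egr3, Ccn1 and single marker genes are named outside this rule, after their values were seen. Alternatives changed the pseudocount, filter, scaling, variance estimate and block, and left out each library.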

Additional observations from a re-analysis of the deposited data

How the results depend on the processing

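Under 14 alternatives, 0 members were called in each, by limma with Benjamini-Hochberg adjustment. Of 126 member values, 115 kept their direction. Dusp1 turned positive with median-of-ratios scaling (0.18), with quantile normalization (0.18) and without Ang II replicate 1 (0.035), Ang II replicate 2 (0.083) or Ang II + Tec replicate 1 (0.38). Without Ang II replicate 3, Fos, Atf3 and Egr1 turned negative (-0.14, -0.33 and -0.41), and without Ang II + Tec replicate 2 likewise (-0.14, -0.15 and -0.19). Leaving out 1 library at a time, Fos ranged up to 0.70, Atf3 up to 0.37, Egr1 up to 0.32 and Dusp1 down to -0.26. The median of the members was then between -0.41, with Ang II replicate 3 left out, and 0.083, with Ang II replicate 2 left out, and it was 0.18 with median-of-ratios scaling and with quantile normalization. All tested genes gave 21 calls, 3 with no filter on low values, and 0 to 544 without 1 library (3 and 6 without Ang II replicates 1 and 2, 544 without Ang II replicate 3, and 0 without any 1 Ang II + Tec library). Without 1 library, the calls among other immediate early genes ranged from 0 to 4 and among chaperones from 0 to 1 (Hmox1), the upper value each time without Ang II replicate 3. The cause was not tested. With the replicate number as a block 22 genes were called, of which 18 were among the 21, and 0 members. In that fit Nr4a1 had an unadjusted limma p-value of 0.00096 (adjusted 0.111) and Ier3 one of 0.0090 (adjusted 0.130). Whether the numbers pair the hearts is not known. The deviations of same-numbered hearts correlated over genes at -0.039, 0.43 and 0.38, and those of differently numbered hearts at -0.44 to 0.23. Deviations from a mean of 3 hearts are tied to each other, so these correlations are not independent and cannot settle the pairing. FPKM give no read counts, so the precision of Fos and Fosb, the lowest members, rests on the spread between 3 hearts.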

Other observations

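Among 11 heat shock and stress genes, 8 were lower and 3 higher with Tec, with a median log2 fold change of -0.027. By limma 0 were called, against 0.160% of all tested genes. Hmox1, the haem-degrading enzyme, was at 8.22, 12.2 and 6.16 FPKM with Ang II and at 3.89, 4.86 and 3.29 FPKM with Tec, without overlap (-0.94, standard error 0.24, limma adjusted p-value 0.201). The co-chaperones Dnajb1 and Hspe1 changed by -0.53 (standard error 0.17) and -0.30 (standard error 0.10), also without overlap. The groups did not overlap for these 3 of the 11, near the share of 21.8% among all tested genes. Hspb1, the most abundant of the list, changed by -0.027 (standard error 0.27).

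Of 15 circadian clock genes, 13 were tested, and 10 were higher and 3 lower, with a median of 0.10. Again 0 were called, against 0.160% of all tested genes. Ciart, a repressor of the clock, was at 2.03, 1.60 and 2.51 FPKM and at 3.24, 4.25 and 3.22 FPKM, without overlap (0.59, standard error 0.16, limma adjusted p-value 0.201). That was so for 1 of the 13, against 21.8% of all tested genes. Dbp, the most abundant, was between 25.7 and 32.4 FPKM in the 6 hearts, and Hlf and Clock changed by 0.33 (standard error 0.18) and -0.30 (standard error 0.14).

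Summed FPKM of further marker lists were 0.330 to 3.05 for 4 neutrophil genes, with Ly6g listed at 0 in the 6 libraries, 147 to 1018 for 5 erythroid genes and 93.6 to 229 for 6 adipocyte genes. The highest erythroid sum was in Ang II replicate 2 and the highest adipocyte sum in Ang II + Tec replicate 2, where Ucp1, the uncoupling protein of brown fat, was at 18.3 FPKM, against 0.620 or less elsewhere.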
